A study of Mus musculus with 2 samples.

Results

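The periportal hepatocyte genes Cyp2f2, Hal, Sds, Sdsl, Hsd17b13, Pck1, Ass1, Cps1, Gls2 and Arg1 were followed through single-cell libraries from mouse liver tumour tissue. They are 10 of the 31053 features counted, and they were located by exact match of the gene symbol. The series holds 2 libraries from C57BL/6 mice, labelled control and FABP5 inhibitor, with 1 library per group. Both groups were recorded as 17 months old with 15 months on a diet named CD-HFD, and the inhibitor was given from month 13. FABP5 binds fatty acids in the cytosol and carries them within the cell. What the control mice received in place of the inhibitor, and how many mice stand behind each library, was not given in the sources used here. The region labelled as hepatocellular carcinoma was cut out and digested with collagenase, and an Annexin V kit served to enrich living cells before 10x Genomics 3′ droplet sequencing. Which fraction was sequenced was not given in the sources used here.

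Blood enters the liver lobule at the portal tract and leaves it at the central vein, and hepatocytes along that path divide their work. Cells near the portal tract carry out most gluconeogenesis, urea synthesis and amino acid breakdown. Cells around the central vein make glutamine and carry much of the drug-metabolising cytochrome P450 system, a programme kept on by Wnt and beta-catenin signalling. Genes of one zone are therefore used as markers of a hepatocyte's place in the lobule, and tumours can lose or keep such programmes.

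The control library held 9493 barcodes with 53378693 UMIs (unique molecular identifiers, each standing for 1 captured mRNA molecule), and the inhibitor library 10649 barcodes with 68074929 UMIs. The libraries had 29 barcode names in common, none of them in the hepatocyte set. Hepatocyte barcodes were those with at least 20 UMIs over Alb, Apoa1, Ttr and Fabp1 and at most 1 UMI of the leukocyte gene Ptprc. There were 1847 of them in the control library and 169 in the inhibitor library. With at most 25% of UMIs from mitochondrial genes, 266 and 131 remained, with a median of 5978.5 and 3838 UMIs. The mitochondrial limit took away most control barcodes of the set, whose median mitochondrial share without it was 85.1%, against 2.10% in the inhibitor library. Of 12 further hepatocyte markers none was at 0 UMIs in either library, and together they made up 3.19% and 1.09% of the UMIs of the 266 and 131 barcodes. Alb itself, which helped to choose the barcodes, stood at 16594 CPM (UMIs of the gene per 1000000 UMIs of the barcodes named) in control and at 4591 CPM in inhibitor barcodes, and Fabp1 at 1460 and 26308 CPM. The genes of the rule thus had unequal weight in the libraries. Barcodes just under the threshold, with 15 to 19 such UMIs (89 and 12 barcodes), had 257 and 115 CPM of the 10 genes together. Those just above it, with 20 to 24 (89 and 8), had 170 and 24.9 CPM. These values come from 81 and 3 UMIs below and 63 and 1 UMIs above, so the inhibitor ones are too few to compare.

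Promoter sequences were found in RefSeq for 5 of the 10 genes, namely Cyp2f2, Hal, Hsd17b13, Pck1 and Ass1 (build GRCm38.p6). Those of Pck1, Hal and Cyp2f2 are shown because these genes had patterns unlike one another. Pck1 was the one member that was higher in inhibitor hepatocyte barcodes, Hal appeared mostly in monocytes there, and Cyp2f2 had no UMI in the whole inhibitor library. Each is printed 5′ to 3′ up to the last base before the annotated gene, from chr2:173152823-173153047, chr10:93488518-93488767 and chr7:27119705-27119908, all on the plus strand, with motif matches in capitals.
Pck1: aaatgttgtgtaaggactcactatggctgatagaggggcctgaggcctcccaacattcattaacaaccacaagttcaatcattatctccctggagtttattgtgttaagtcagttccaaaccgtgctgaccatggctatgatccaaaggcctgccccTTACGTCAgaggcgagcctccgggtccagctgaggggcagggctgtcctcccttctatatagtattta
Hal: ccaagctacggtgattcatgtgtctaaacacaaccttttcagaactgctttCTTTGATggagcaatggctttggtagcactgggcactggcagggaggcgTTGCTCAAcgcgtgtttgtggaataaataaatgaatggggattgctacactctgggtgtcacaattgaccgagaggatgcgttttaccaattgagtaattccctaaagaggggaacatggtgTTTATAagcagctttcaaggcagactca
Cyp2f2: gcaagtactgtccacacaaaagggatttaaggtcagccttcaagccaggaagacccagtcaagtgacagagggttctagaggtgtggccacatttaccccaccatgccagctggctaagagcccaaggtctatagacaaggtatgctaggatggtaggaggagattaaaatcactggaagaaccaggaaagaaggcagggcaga
The capitals in Pck1 mark a match to the cyclic AMP response element TNACGTCA, 93 bases before the RefSeq start, the kind of element through which glucagon signalling is known to act on this gene. Of 32851 RefSeq promoters, 2.52% held this motif within 250 bases on either strand. In Hal they mark, from left to right, a TCF/LEF match (CTTTGAT, in 3.21% of promoters), a C/EBP match (TTGCNNAA, in 9.56%) and a TATA box on the other strand (TATAAA, in 12.4%). CAAAGTNCA for HNF4A (1.19%) was also searched on both strands. None of these 5 motifs was found in the windows of Cyp2f2, Hsd17b13 and Ass1. The matches describe the sequence and are not evidence of binding.

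In hepatocyte barcodes within the mitochondrial limit, 8 of the 10 genes were lower in the inhibitor library by at least 1.5-fold, 1 was higher and 1 lay between. Over the 9845 genes with at least 20 UMIs in these barcodes, 32.9% were lower and 21.6% higher by the same fold. These shares also stand beside each gene list counted below in the same barcodes. The median log2 ratio of the 10 genes, inhibitor over control, was −4.25 with 4 of them entered at their bound, and that of all 9845 genes was −0.12. At 2-fold the counts were 8 lower and 0 higher, where 22.8% and 11.1% of all genes were. Summed over the 10 genes, control barcodes had 1840 CPM (95% Poisson interval 1792 to 1889), and inhibitor barcodes had 484 CPM (447 to 524). With 1 library per group there is no replicate and no test, and these intervals cover counting error only. Every difference below is one between 2 libraries.

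**Figure D1:**
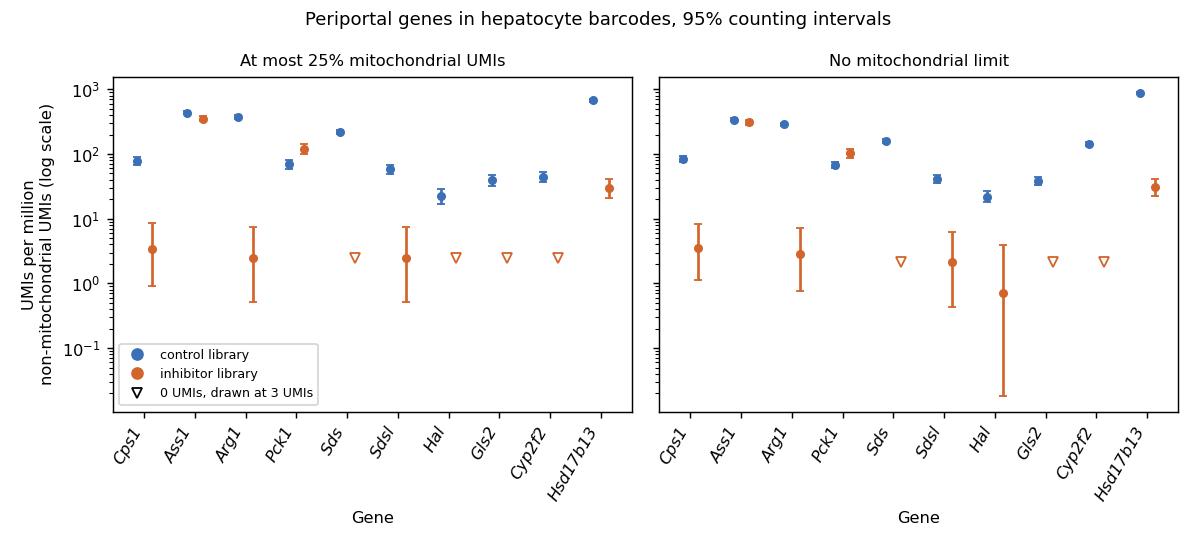
Level of each gene in hepatocyte barcodes of the control (blue) and inhibitor (orange) library, in UMIs per 1000000 non-mitochondrial UMIs on a log axis, within the 25% mitochondrial limit (left) and without it (right). Bars are 95% Poisson intervals and open triangles stand for 0 UMIs, drawn at the level of 3 UMIs. On the left Pck1 is higher in the inhibitor library, Ass1 is slightly lower, and the other 8 genes are drawn at least 8.92-fold apart.

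Cps1, Ass1 and Arg1 belong to the urea cycle, which turns ammonia into urea. Cps1 (chr1:67123026-67231259, plus strand, GRCm38 here and below) makes carbamoyl phosphate, the entry step in mitochondria. It had 214 UMIs in 57 of 266 control barcodes and 4 UMIs in 2 of 131 inhibitor barcodes. Its level was 71.8 CPM (62.5 to 82.1) against 3.18 CPM (0.87 to 8.15), a log2 ratio of −4.50 (95% counting interval −6.39 to −3.12). A single control barcode held 50 of those 214 UMIs. With no Ptprc UMI and at most 3 leukocyte marker UMIs per barcode the log2 ratio of Cps1 was −1.92 (−3.85 to −0.46). Ass1 (chr2:31470207-31520672, plus strand), the cytosolic enzyme that joins citrulline and aspartate, had 1183 UMIs in the control and 420 in the inhibitor set, or 397 CPM (375 to 420) and 334 CPM (303 to 368). It was detected in 61.7% and 58.8% of the barcodes, and its log2 ratio of −0.25 (−0.41 to −0.09) turned to 0.86 on the scale of all UMIs without the mitochondrial limit and was −0.14 there per non-mitochondrial UMI. Arg1 (chr10:24915221-24927484, minus strand), which splits arginine into urea and ornithine, had 1018 UMIs in 126 control barcodes and 3 UMIs in 1 inhibitor barcode. That is 342 CPM (321 to 363) in control against 2.39 CPM (0.49 to 6.97), for a log2 ratio of −7.16 (−9.44 to −5.61). Of the 3 genes, Arg1 and Cps1 had levels far outside each other's intervals in the libraries, while Ass1 differed by less than 1.5-fold. The urea cycle list of 9 genes, these 3 included, had 2 lower, 4 higher and 3 between, with a median log2 ratio of 0.57. Its highest ratio was that of Slc25a13, the mitochondrial aspartate and glutamate carrier, at 30.2 and 150 CPM.

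Pck1 (chr2:173153048-173159273, plus strand) encodes the cytosolic phosphoenolpyruvate carboxykinase of gluconeogenesis. It had 188 UMIs in 58 of 266 control barcodes and 143 UMIs in 47 of 131 inhibitor barcodes, or 63.1 CPM (54.4 to 72.8) and 114 CPM (95.9 to 134). It was the one member that was higher in the inhibitor set, by a log2 ratio of 0.85 (0.53 to 1.17). Whether it passed 1.5-fold depended on the barcodes taken, with a log2 ratio between 0.13 and 1.58 over the alternatives. The value of 1.58 was without the mitochondrial limit, relative to all UMIs. UMIs of Pck1 were unevenly spread, since the 10 barcodes with most held 57.4% and 56.6% of them in the control and inhibitor sets. Among 8 gluconeogenesis genes 1 was lower, 3 were higher and 4 lay between, with a median log2 ratio of 0.24. Pcx, pyruvate carboxylase, had the highest ratio with 47.3 and 140 CPM, and Tat, tyrosine aminotransferase, the lowest with 91.3 and 54.1 CPM.

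The 4 members of amino acid breakdown were nearly absent from the inhibitor hepatocyte barcodes. Sds (chr5:120476526-120483932, plus strand), serine dehydratase, had 593 UMIs (199 CPM, 183 to 216) in 100 of 266 control barcodes. None was found in the 131 inhibitor barcodes. Sds was 83.4-fold lower with 0 set to 3 UMIs, and the upper end of its log2 interval was −6.08. Sdsl (chr5:120458186-120472810, minus strand), its close relative, lies beside it with 3715 bases between the genes. Sdsl had 158 UMIs in 76 control barcodes and 3 UMIs in 2 inhibitor barcodes, or 53.0 CPM (45.1 to 62.0) and 2.39 CPM (0.49 to 6.97). The neighbours share no run of 60 identical bases in their annotated transcripts, and 51 of 234 control barcodes of at least 1000 UMIs held both. Sds alone was found in 46 and Sdsl alone in 24. Hal (chr10:93488768-93519304, plus strand) is histidine ammonia-lyase, the first enzyme of histidine breakdown. It had 61 UMIs (20.5 CPM, 15.7 to 26.3) in 35 control barcodes and none in the inhibitor set. With 0 set to 3 UMIs Hal was 8.58-fold lower, and the upper end of its log2 interval was −2.76. Gls2 (chr10:128194457-128210004, plus strand) is the liver glutaminase that frees ammonia for urea synthesis. It had 108 UMIs (36.2 CPM, 29.7 to 43.8) in 53 control barcodes and none in the inhibitor set. With 0 set to 3 UMIs Gls2 was 15.2-fold lower, and the upper end of its log2 interval was −3.60. Each of the 4 genes was seen in 35 control barcodes or more and in at most 2 inhibitor barcodes. The whole list of 15 amino acid breakdown genes was mixed, with 9 lower and 5 higher and a median log2 ratio of −0.92. Hpd, an enzyme of tyrosine breakdown, had its highest ratio at 105 and 1040 CPM.

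Hsd17b13 (chr5:103955440-103977410, minus strand) encodes a lipid droplet protein of hepatocytes and had the most UMIs of the 10 genes in the control hepatocyte barcodes. It had 1839 UMIs in 152 control barcodes and 36 UMIs in 12 inhibitor barcodes, 15 of these in 1 barcode. The level was 617 CPM (589 to 646) against 28.6 CPM (20.1 to 39.6), a log2 ratio of −4.43 (−4.95 to −3.96). That ratio was −2.73 (−3.34 to −2.14) without barcodes that held tumour or progenitor markers, and −6.83 where the 4 rule genes made up at least 5% of UMIs. The other lipid droplet genes with enough UMIs lay on the other side. Of 8 genes on that list Hsd17b13 alone was lower and 7 were higher, with a median log2 ratio of 1.17, and Cidec, a protein of droplet fusion, led at 19.1 and 83.5 CPM. Cyp2f2 (chr7:27119909-27133660, plus strand), a cytochrome P450 used as a periportal marker, had 120 UMIs in 47 control barcodes and none in the inhibitor set. Its control level was 40.3 CPM (33.4 to 48.2). With 0 set to 3 UMIs it was 16.9-fold lower in the inhibitor set, and the upper end of its log2 interval was −3.76. A further list of 10 periportal genes had 9 with at least 20 UMIs, of which 7 were lower and 1 was higher (median −1.86). Aldh1b1, a mitochondrial aldehyde dehydrogenase, stood at 59.7 and 1.59 CPM there, and Fbp1, fructose bisphosphatase, at 302 and 683 CPM.

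To compare the libraries at 1 depth, each barcode was thinned to 1000 UMIs, which left out 32 control and 13 inhibitor barcodes. Of the 234 control barcodes kept, 30.8% then held Hsd17b13, 23.9% Arg1, 19.2% Sds and 2.56% Hal, against 57.1%, 47.4%, 37.6% and 13.2% unthinned. Of the 118 inhibitor barcodes 0 held any of the 8 lower genes, which allows a share of up to 3.08% for each. For Hal, Gls2, Cyp2f2 and Sdsl the interval of the control share reached below that limit, so their difference was not detectable at this depth. Pck1 was held by 11.1% of control and 14.4% of inhibitor barcodes and Ass1 by 26.5% and 24.6%. Lymphocyte barcodes, with medians of 3587.5 and 3617 UMIs, should lack these genes other than Ass1. At the same thinned depth they gave shares of 0.643% or less for those genes, and 4.50% and 4.78% for Ass1, which leukocytes also held.

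The control barcodes removed by the mitochondrial limit carried another mixture of the genes. Counted per 1000000 non-mitochondrial UMIs, Cyp2f2 stood at 61.3 in the 90 control barcodes with up to 5% mitochondrial UMIs and at 378 in the 1106 barcodes above 80%. Hsd17b13 stood at 360 and 1340 in the same barcodes. Sds ran the other way, from 370 to 36.8, as did Arg1 from 762 to 159 and Ass1 from 747 to 199. Cps1 (95.5 and 78.5) and Pck1 (74.3 and 72.1) had intervals that overlapped between these ends. The sum of the 10 genes was 2629 and 2333 at the ends. The share of Alb, Apoa1, Ttr and Fabp1 in non-mitochondrial UMIs was 3.24% and 21.8%, so barcodes of high mitochondrial share were also richer in those transcripts. The part of RNA quality in these differences was not tested.

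**Figure D2:**
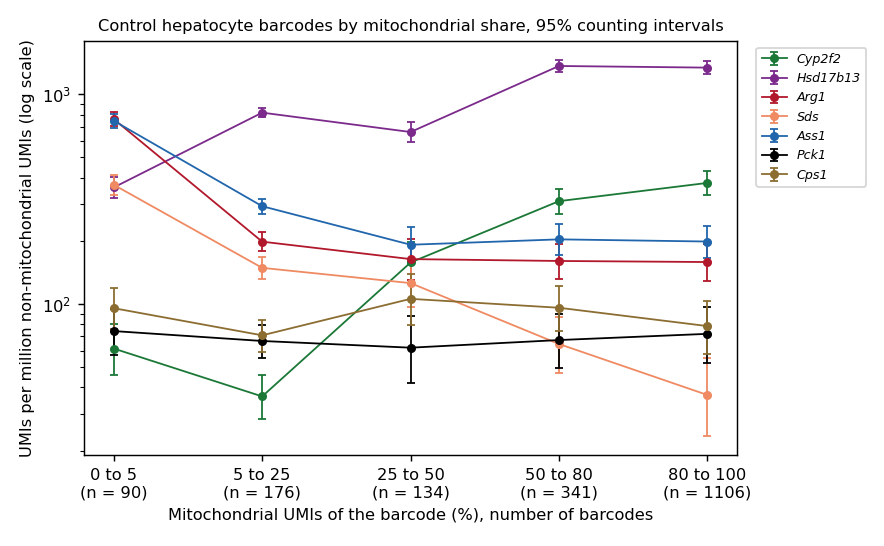
Levels of 7 of the genes in control hepatocyte barcodes grouped by mitochondrial share, in UMIs per 1000000 non-mitochondrial UMIs on a log axis, with 95% Poisson intervals. Cyp2f2 and Hsd17b13 are highest in the bins above 50%, Sds, Arg1 and Ass1 in the bin up to 5%, and Pck1 stays between 61.9 and 74.3.

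Without the mitochondrial limit the contrast between the libraries was of the same kind. On the scale of non-mitochondrial UMIs Cyp2f2 stood at 143 and 0, Hsd17b13 at 871 and 31.1, Sds at 159 and 0, and Arg1 at 288 and 2.83. With 0 set to 3 UMIs Cyp2f2 was 67.5-fold and Sds 75.1-fold lower. The upper ends of their log2 intervals were −5.78 and −5.93. Pck1 stood at 68.4 and 102, a log2 ratio of 0.58 (0.29 to 0.87), just under 1.5-fold. On this scale 8 of the 10 genes were lower and none was higher by 1.5-fold, where 25.6% of all genes were lower and 34.4% higher. Relative to all UMIs, 12.7% of genes were lower and 70.9% higher, and the median of all genes moved from −0.12 to 1.21 with the loss of the limit. The levels without the limit in this paragraph are therefore given per non-mitochondrial UMI. Within the limit the 2 scales were close, with 34.4% lower and 19.8% higher per non-mitochondrial UMI. In a stricter set of 60 control and 31 inhibitor barcodes, where the 4 rule genes made up at least 5% of UMIs and leukocyte UMIs were few, 6 of the 10 genes had at least 20 UMIs, and 5 of these were lower and 0 higher. Of all genes with as many UMIs in that set 22.9% were lower and 52.7% higher, and Arg1 had no inhibitor UMI.

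The inhibitor hepatocyte barcodes carried the genes of the opposite zone. All 15 pericentral genes on the list were higher there, with a median log2 ratio of 6.67. Glul, the glutamine synthetase of the cells nearest the central vein, stood at 28.9 and 7074 CPM. Oat, ornithine aminotransferase, had the highest ratio at 7.72 and 9604 CPM, and Cyp2a5, a cytochrome P450, the lowest at 527 and 920 CPM. In the stricter set of 60 and 31 barcodes 10 pericentral genes had at least 20 UMIs. Of these 8 were higher, 1 was lower and 1 lay between (median 4.02), where 52.7% of all genes were higher. Without the mitochondrial limit, per non-mitochondrial UMI, 14 of the 15 were higher and 1 lay between. Barcode by barcode, the summed CPM of the 10 periportal genes exceeded that of the 15 pericentral genes in 178 of 266 control barcodes and in 0 of 131 inhibitor barcodes. In control the pericentral sum was the larger in 62 barcodes, and the sums were equal in 26. Over the control set Cyp2a5 alone gave 527 of the 767 CPM of the pericentral sum. At least 1 UMI of Glul or Oat was present in 65 of 266 control and 129 of 131 inhibitor barcodes. At least 5 of the 10 periportal genes were detected in 83 control barcodes (31.2%) and 1 inhibitor barcode (0.763%), and none of them in 48 and 42. Without the mitochondrial limit the periportal sum was the larger in 726 of 1847 control barcodes (39.3%) and in 2 of 169 inhibitor barcodes. The pericentral sum was the larger in 626 control (33.9%) and 159 inhibitor barcodes, and the sums were equal in 495 and 8. In control barcodes above the limit the periportal sum was 441 CPM and the pericentral sum 471 CPM. Without the limit at least 5 of the 10 genes were detected in 6.71% and 0.592%. Glul or Oat was then present in 109 control and 153 inhibitor barcodes. The 3 mid-lobular genes with enough UMIs had a median log2 ratio of −0.39, with Mup3, a major urinary protein, lowest at 47.7 and 13.5 CPM and Igfbp2, a binding protein of insulin-like growth factors, highest at 11.7 and 11.1 CPM. Of 14 regulators and hormone receptors 2 were lower and 6 higher (median 0.31), where 32.9% and 21.6% of all genes were. Their lowest ratio was that of Ppargc1a, a coactivator of gluconeogenic genes, at 5.71 and 3.18 CPM. The highest was that of Nr1i3, the receptor CAR, at 2.01 and 58.9 CPM. In these sets 3 UMIs are 1.01 and 2.39 CPM, so each of these ratios has a side with few UMIs.

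**Figure D3:**
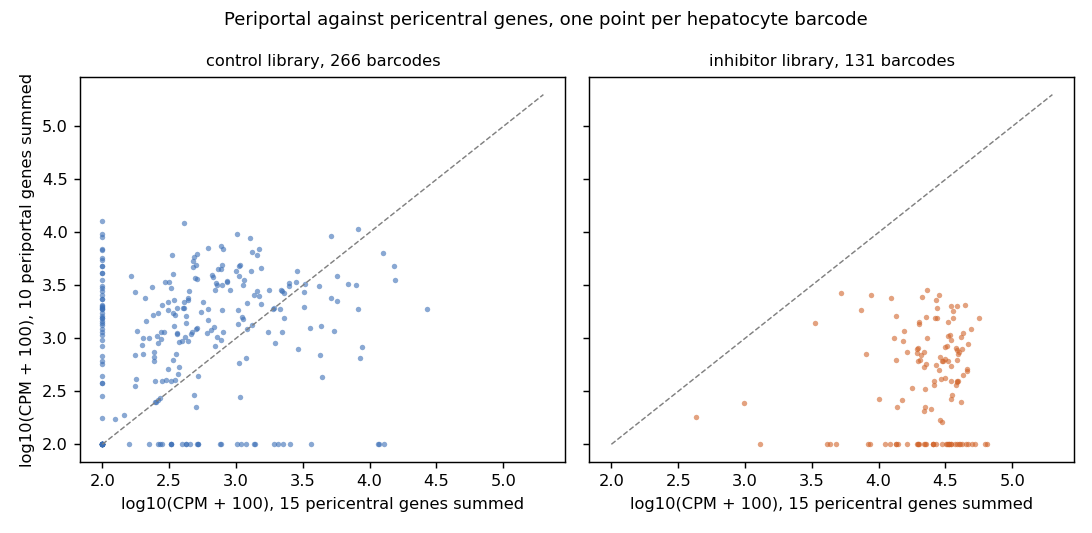
Each point is 1 hepatocyte barcode within the mitochondrial limit, with the summed CPM of 15 pericentral genes on the horizontal axis and of the 10 periportal genes on the vertical axis, both as log10(CPM + 100). The dashed line marks equal sums. In the control library 178 of 266 barcodes lie above it, and all 131 inhibitor barcodes lie below it.

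Pck1 and Ass1, the members with most UMIs in the inhibitor hepatocyte set, were found in those same pericentral-rich barcodes. They made up 25.01% of the UMIs of the 10 genes in the control and 92.4% in the inhibitor set. All 47 inhibitor barcodes with Pck1 also held Glul or Oat, as did 76 of the 77 with Ass1, and 37 barcodes held both Pck1 and Ass1. In the control set Glul or Oat was present in 12 of 58 barcodes with Pck1 and in 46 of 164 with Ass1. Since 129 of 131 inhibitor barcodes held Glul or Oat, the overlap there could hardly have been smaller.

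Pairs of the 10 genes were also compared within the control hepatocyte barcodes. Over the 234 barcodes with at least 1000 UMIs, Spearman's rho between CPM values was highest for Ass1 with Arg1 (0.63), which were found together in 106 barcodes, and for Sds with Arg1 (0.56). It was lowest for Hal with Hsd17b13 (0.09). These barcodes share 1 library and differ in depth, and the low values, in sparse counts, show nothing. Among 1296 genes compared, Adk, Phyh and Acaa2 were among the 5 whose CPM went most closely with the summed 10 genes over the 1847 and 169 hepatocyte barcodes without the limit. Adk, adenosine kinase, had a rho of 0.38 in the control and 0.39 in the inhibitor library, and Phyh, a peroxisomal enzyme of phytanic acid breakdown, 0.39 and 0.38. Acaa2, a thiolase of mitochondrial fatty acid oxidation, had 0.39 and 0.36. CPM here is relative to all UMIs, and the median mitochondrial share of these control barcodes was 85.1%. The part of mitochondrial share in these values was not tested. In the inhibitor barcodes Pck1 and Ass1 made up 91.1% of the UMIs of the 10 genes, so the sum there is mostly theirs.

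Tumour or progenitor markers were unevenly held by the libraries. Afp, Gpc3, Spp1, Tspan8, Golm1, Cd24a and H19 together made up 1.21% of UMIs in the control and 0.0291% in the inhibitor hepatocyte barcodes, where Gpc3 and H19 were at 0. At least 3 UMIs of them were found in 162 of 266 control barcodes, mostly from Spp1, and in 7 of 131 inhibitor barcodes. The summed 10 genes were alike in control barcodes with and without such markers, 1842 CPM (1791 to 1895) and 1825 CPM (1685 to 1972), although the former had a median of 12131 and the latter of 1943.5 UMIs. Hsd17b13 (667 and 236 CPM) and Sdsl (58.1 and 14.4 CPM) were higher in the former, and Arg1 (315 and 542 CPM), Ass1 (379 and 533 CPM) and Cyp2f2 (35.7 and 74.9 CPM) in the latter. Without the barcodes with such markers, the log2 ratio of the summed 10 genes between the libraries was −1.61. There 8 genes were again lower, and the share of all genes in this set was not computed. Of the 8, Hal (11 and 0 UMIs), Sdsl (5 and 0), Cps1 (13 and 4) and Gls2 (13 and 0) were under 20 UMIs over both libraries. Erythroid genes made up 3.38% and 0.265% of UMIs in the hepatocyte sets, up to 85.4% in a single control barcode. Leukocyte markers made up 0.168% and 0.101%. Markers of bile duct cells (Epcam, Krt19, Krt7, Sox9 and Cldn4) made up 0.0239% and 0.00247%, with at least 3 UMIs in 50 control and 2 inhibitor barcodes. Leaving out haemoglobin-rich barcodes gave a log2 ratio of −1.997.

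Over all barcodes of each library, 9 of the 10 genes were lower in the inhibitor library by at least 1.5-fold and Hal was higher, where 23.2% and 16.5% of all genes were lower and higher. Hsd17b13 had 4632 and 72 UMIs, Arg1 1660 and 38, Sds 805 and 2, Cyp2f2 769 and 0, Cps1 441 and 11, Pck1 376 and 175, Sdsl 217 and 16, and Gls2 201 and 4. In these pooled values fewer hepatocytes and less RNA per hepatocyte cannot be told apart. The 4 genes that define hepatocyte barcodes themselves made up 0.879% of control and 0.0914% of inhibitor UMIs. Per 1000 UMIs of those 4 genes the summed members turned to higher in the inhibitor library, 29.6 and 56.6. On that scale Ass1 (9.93 and 46.9), Hal (0.30 and 4.60) and Pck1 (0.80 and 2.81) were higher and the other 7 genes lower. Ass1 had 4660 and 2915 UMIs in all and Hal 140 and 286, and the log2 ratio of the sum of CPM, −2.33 with all 10 genes, was −5.19 without them.

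In the inhibitor library Pck1 and Hsd17b13 were the members with most of their UMIs in hepatocyte barcodes, at 82.9% and 61.1%. Between 71.4% and 89.9% of the UMIs of each member other than Ass1 came from hepatocyte barcodes of the control library, when no mitochondrial limit was set. Of control Ass1 UMIs 33.2% lay in hepatocyte, 38.7% in myeloid and 13.0% in lymphocyte barcodes. In the inhibitor library 15.0% of Ass1 UMIs and 0.350% of Hal UMIs lay in hepatocyte barcodes, while myeloid barcodes held 49.5% and 92.7%. Hepatocyte barcodes there held 45.5% of Cps1, 18.8% of Sdsl and 10.5% of Arg1 UMIs, and 57.9% of Arg1 UMIs were myeloid. They held none of the 2 Sds and 4 Gls2 UMIs. Pck1 kept to hepatocyte barcodes in the control library too, with 82.7%.

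**Figure D4:**
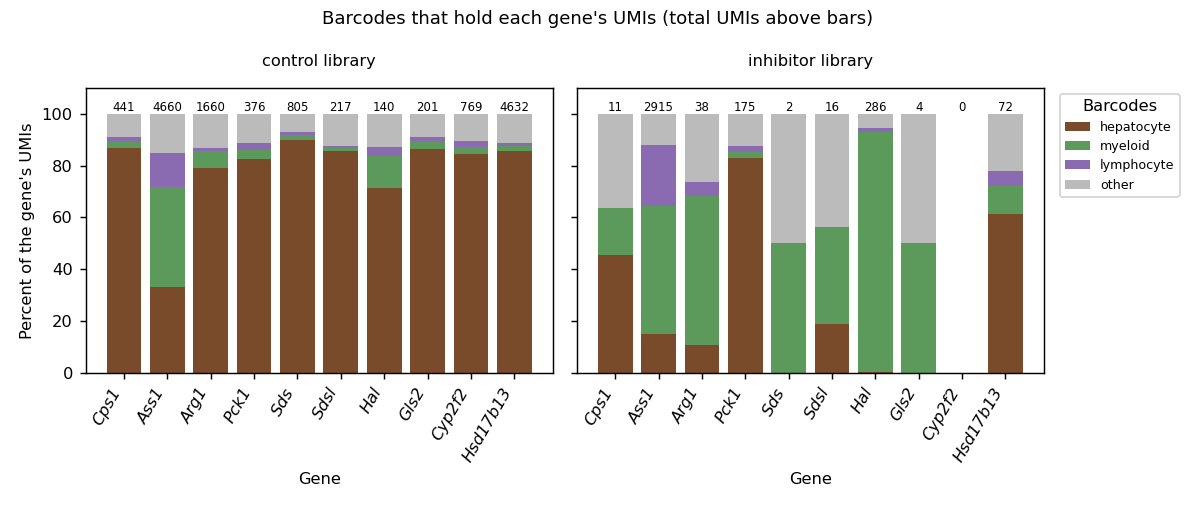
Percent of each gene's UMIs that came from hepatocyte, myeloid, lymphocyte and other barcodes, without a mitochondrial limit, with the gene's total UMIs above each bar. In the inhibitor library Hal is almost wholly myeloid (92.7%), Pck1 is 82.9% hepatocyte, and Cyp2f2 has no UMI and no bar.

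Arg1 is also a known enzyme of alternatively activated macrophages, so it was followed in myeloid barcodes, which had at least 5 UMIs over 8 myeloid markers. It had 106 UMIs in 41 of 2856 control barcodes and 22 UMIs in 8 of 5777 inhibitor barcodes. Control stood at 5.69 CPM (4.66 to 6.88) against 0.49 CPM (0.31 to 0.75), with a log2 ratio of −3.53 (−4.26 to −2.86). Among genes with at least 20 UMIs in myeloid barcodes 27% were lower and 8.6% higher by 1.5-fold. Lymphocyte barcodes, a cell type that should lack Arg1, had 1.68 and 0.16 CPM. Most myeloid Arg1 lay in barcodes with macrophage markers, with 78 and 16 UMIs, or 16.3 CPM (12.9 to 20.3) and 8.24 CPM (4.71 to 13.4). Within them the log2 ratio was −0.98 (−1.86 to −0.20). Such barcodes were 539 of the 2856 control and 147 of the 5777 inhibitor myeloid barcodes, while classical monocyte barcodes were 568 and 4111, so the mix of myeloid subsets differed between the libraries. Single barcodes held 46 of those 78 and 15 of those 16 UMIs. Without the barcode with most Arg1 in each library the log2 ratio over myeloid barcodes was −4.36, and with at most 5 UMIs of the 4 hepatocyte genes per barcode it was −2.45. Arg1 in myeloid barcodes was thus rare in both libraries and rested on few barcodes.

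Hal in the inhibitor library lay mostly in barcodes with markers of classical monocytes, the Ly6c2 and Ccr2 type. They held 8 Hal UMIs in 568 control barcodes and 255 Hal UMIs in 4111 inhibitor barcodes. The control level was 1.78 CPM (0.77 to 3.50) and that of the inhibitor library 7.44 CPM (6.55 to 8.41), with a log2 ratio of 2.07 (1.07 to 3.29), and 1.23% and 5.04% of the barcodes held a UMI at medians of 7848 and 8261 UMIs. Lymphocyte barcodes stood at 0.31 and 0.33 CPM. Hepatocyte barcodes of the same inhibitor library held a single Hal UMI without the mitochondrial limit. Annotated Hal transcripts share runs of 60 bases with transcripts of 37 other genes, at most 7 such runs with any 1 gene, and how reads from such stretches were assigned was not tested.

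Ass1 was spread over leukocytes in both libraries. Classical monocyte barcodes stood at 117 CPM (107 to 128) under control and at 30.4 CPM (28.6 to 32.3) under inhibitor, and macrophage barcodes at 120 CPM (110 to 130) and 25.2 CPM (18.7 to 33.4). Dendritic cell barcodes stood at 101 CPM (88.2 to 114) and 66.6 CPM (52.6 to 83.1). Lymphocyte barcodes went the other way, at 45.5 CPM (42.0 to 49.3) and 55.9 CPM (51.8 to 60.2). Myeloid Ass1 as a whole had a log2 ratio of −1.58 (−1.69 to −1.48), and hepatocyte barcodes one of −0.25. Ass1 transcripts share 851 runs of 60 bases with Gm5424, and how reads from such stretches were assigned was not tested.

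**Figure D5:**
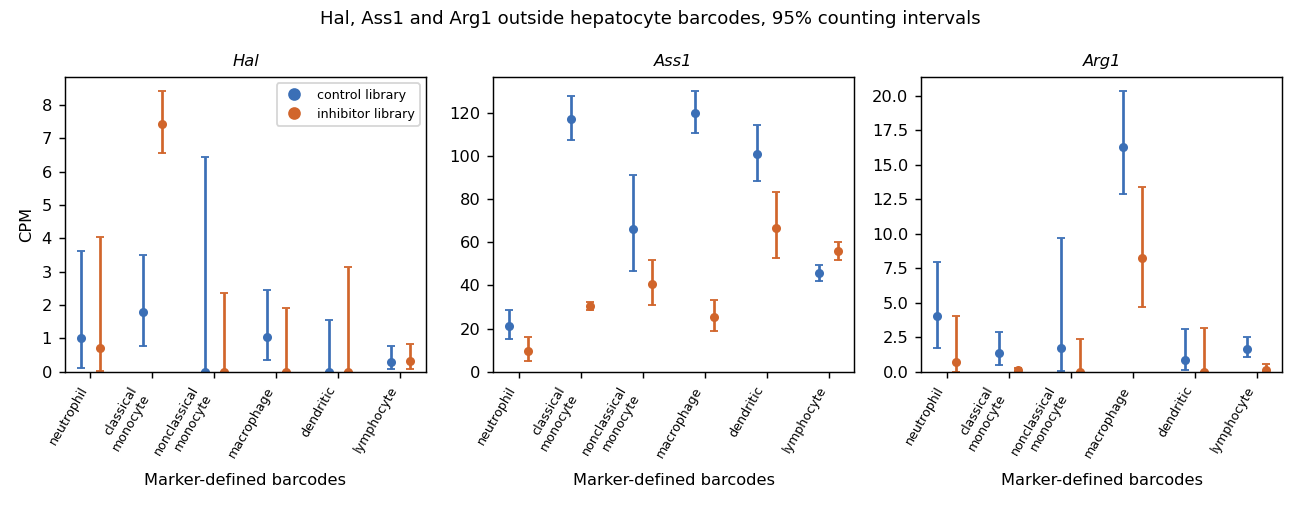
CPM of Hal, Ass1 and Arg1 in barcodes grouped by myeloid subset markers and in lymphocyte barcodes, control (blue) and inhibitor (orange), with 95% Poisson intervals and a separate vertical scale per gene. Hal stands out in inhibitor classical monocytes (7.44 CPM), Ass1 is lower in inhibitor monocytes and macrophages, and Arg1 is highest in macrophages.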

How the data were processed

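The authors deposited whole-number UMI counts per gene and barcode, not normalized, written by Cell Ranger 5.0.1 per the file headers. The submitters' processing notes name build mm9 along with Seurat 3, R 3.0 and Cell Ranger, yet 31011 of the 31053 feature identifiers (99.9%) were found in GENCODE M21 on GRCm38. The build behind the counts is open, and positions printed are GRCm38.

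Counts were summed over barcodes and given as CPM with exact Poisson 95% intervals, shares of barcodes with exact (Clopper-Pearson) and ratios with exact conditional binomial intervals, all for counting error only. For folds and log2 ratios a count of 0 was set to 3 UMIs per set of barcodes, and such a fold is not a confidence bound. Genes were called at 1.5-fold. Myeloid barcodes needed 5 UMIs of 8 markers and at most 1 UMI of 6 lymphocyte markers, lymphocyte barcodes 3 UMIs of the latter, and myeloid subsets were set by 3 UMIs of a marker list and a lead of 2-fold over the next list. No doublet caller was run, and limits on leukocyte and haemoglobin UMIs were tried instead. Cyp2f2, Sds and Gls2 overlap counted genes on the other strand, which a strand-specific count keeps apart, and whether the counting used strand was not given in the sources used here. Ratio intervals were tried only on simulated independent Poisson counts, the model they assume. The effect of UMIs clustered in few barcodes was not tested. Python 3.11.15, NumPy 2.4.6, SciPy 1.17.1, pandas 2.3.3 and matplotlib 3.10.9 were used.

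The 10 genes, all lists and the barcode rule were chosen with earlier results of these data known. Named were all 10 genes, the highest and lowest ratio of each of 9 lists among genes with at least 20 UMIs, and the 5 genes most correlated with the summed members, detected in at least 10% of barcodes. Some genes that this rule takes are not reported here.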

Additional observations from a re-analysis of the deposited data

How the results depend on the processing

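The count of 8 lower members in hepatocyte barcodes, with no minimum of UMIs, was 8 or 9 under each alternative tried, though not always of the same genes. With the 5% share and few leukocyte UMIs, Ass1 (−0.65) was counted and Sdsl (−0.19) was not, Hal (7 UMIs), Gls2 (14) and Cps1 (19) were under 20 UMIs, and 5 of the 6 members with at least 20 UMIs were lower. The log2 ratio of the summed members in hepatocyte barcodes, −1.93, was −1.19 without the mitochondrial limit relative to all UMIs. It was −2.09 from 50 UMIs of the 4 rule genes and −2.56 with those genes at 5% or more of UMIs. With no Ptprc and few leukocyte UMIs it was −1.69, and with the lymphocyte level subtracted −2.06. That level includes Ass1, which lymphocyte barcodes held in both libraries. Chosen after seeing the data, the log2 ratio of the sum was −1.61 without tumour marker barcodes, −2.19 without the limit per non-mitochondrial UMI, and −2.36 with the 5% share and few leukocyte UMIs. The count of higher members, 1, was 2 without the limit relative to all UMIs. It was 0 at 2-fold, at the 5% share, at the 5% share with few leukocyte UMIs, and without the limit per non-mitochondrial UMI. Over all barcodes the sum, −2.33, was −2.11 with the mitochondrial limit, −2.55 per non-mitochondrial UMI, −2.17 without Arg1, 0.93 per 1000 UMIs of the 4 genes and, chosen after seeing the data, −5.19 without Ass1 and Hal. Myeloid Arg1, −3.53, was −2.45 with at most 5 UMIs of the 4 genes and, chosen after seeing the data, −4.36 without the barcode with most Arg1. The cause was not tested for any of these. Of 110 values of single members under alternatives, 52 rest on a 0 set to 3 UMIs or are compared with such a value. Their sign says nothing on stability. Of the other 58, 47 lay within the counting interval of the reported value, and Ass1 changed sign, to 0.86 without the limit relative to all UMIs. No paired analysis was possible because each group has 1 library. Few inhibitor hepatocyte barcodes, 131, limit what can be seen of rare transcripts.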

Other observations

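Of 8 genes of arginine use with at least 20 UMIs in myeloid barcodes, Arg1 among them, 5 were lower and 2 higher in the inhibitor library. Of all genes with as many UMIs there 27% were lower and 8.6% higher. The median log2 ratio was −0.69 for the 8 genes and −0.12 for all genes, in libraries whose mix of myeloid subsets differed. Over all myeloid barcodes Arg2, the mitochondrial arginase, stood at 32.8 and 11.7 CPM, and Mrc1, the macrophage mannose receptor, at 42.8 and 24.6 CPM. By subset, Arg2 was highest in neutrophils, at 262 CPM (95% Poisson interval 240 to 285) in control and 238 CPM (213 to 265) in inhibitor neutrophil barcodes, against 5.33 and 4.99 CPM in classical monocytes. Nos2, the inducible nitric oxide synthase, had 1 and 5 UMIs in all myeloid barcodes, yet it had the highest ratio of the list in hepatocyte barcodes, with 7 UMIs (2.35 CPM) in the control and 94 UMIs (74.8 CPM) in the inhibitor set. Chil3, a chitinase-like protein of monocytes and macrophages, stood at 1008 and 2427 CPM in classical monocyte barcodes. Chil3 is itself among the markers that chose those barcodes, so its level there is no independent observation. Mrc1 stood at 95.5 and 261 CPM in macrophage barcodes, where Arg1 stood at 16.3 and 8.24 CPM. The barcodes with Kupffer cell markers, 1 and 5, were too few to describe.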
